A study of Mus musculus with 24 samples.

Results

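The 10 genes described here belong to the circadian clock and were followed liver by liver in 24 mouse livers. They are Arntl, Clock, Npas2, Per1, Per2, Per3, Cry1, Nr1d1, Dbp and Tef, taken as the entries of the deposited count table with exactly these gene names, 10 of 55335 genes. Female mice of 2 genotypes received 1 of 3 diets, with 4 livers in each of the 6 groups. Wild-type (WT) mice were B6129SF2/J, an F2 hybrid of C57BL/6J and 129S1/SvImJ. The other line, 3xTg-AD (3xTg), models Alzheimer's disease: mutant human APP and tau transgenes are driven by the neuron-directed Thy1 promoter. Because the WT mice are a separate line, the transgenes and the strain background cannot be told apart. Feeding started at 3 months of age and lasted 6 months in every group. Control chow was 70% carbohydrate with 20% long-chain triglyceride, the rest being 10% protein, at 4.1 kcal/g. In the MCT diet 10% of medium-chain triglyceride replaced the same share of long-chain triglyceride, and the ketogenic diet (KD) had no carbohydrate, 90% long-chain triglyceride and 10% protein at 6.7 kcal/g. The sources used here do not give the hour at which each liver was taken, the light cycle or the feeding schedule.

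The clock of the liver is a feedback loop of transcription. ARNTL (BMAL1) pairs with CLOCK or NPAS2 and activates genes that carry E-boxes, among them Per and Cry, whose proteins return to block the pair. The same pair drives Nr1d1 (REV-ERB alpha), which represses Arntl, Clock, Npas2 and Cry1 through ROR elements, and it drives Dbp, whose product, like TEF, activates genes with D-boxes. In the liver of a mouse kept on a light cycle, Arntl and Npas2 transcripts therefore peak at nearly the opposite time of day from Nr1d1 and Dbp, with the Per genes peaking later than Nr1d1.

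The promoter windows of the members were searched for the letters of these elements, and 5 of the windows that hold a match are printed below. RefSeq windows on GRCm38.p6, 250 bases before to 50 bases after an annotated start, were held for 9 of the 10 members, 14 windows in all, with none for Per2. Both strands were searched for the E-box CACGTG, the D-boxes TTACGTAA and TTATGTAA, and AGGTCA, the core of the ROR and REV-ERB element. Capitals mark the matches, and a match on the minus strand reads TGACCT. Sequences are written 5′ to 3′ on the strand of the gene.
Arntl promoter, chr7:113207261-113207560, plus strand, AGGTCA in capitals: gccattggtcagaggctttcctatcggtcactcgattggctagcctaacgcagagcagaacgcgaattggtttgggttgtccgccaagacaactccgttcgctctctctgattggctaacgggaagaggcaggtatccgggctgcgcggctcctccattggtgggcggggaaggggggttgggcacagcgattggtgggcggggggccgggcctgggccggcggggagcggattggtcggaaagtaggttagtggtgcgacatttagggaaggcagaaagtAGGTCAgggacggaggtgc
Cry1 promoter, chr10:85185005-85185304, minus strand, E-box in capitals: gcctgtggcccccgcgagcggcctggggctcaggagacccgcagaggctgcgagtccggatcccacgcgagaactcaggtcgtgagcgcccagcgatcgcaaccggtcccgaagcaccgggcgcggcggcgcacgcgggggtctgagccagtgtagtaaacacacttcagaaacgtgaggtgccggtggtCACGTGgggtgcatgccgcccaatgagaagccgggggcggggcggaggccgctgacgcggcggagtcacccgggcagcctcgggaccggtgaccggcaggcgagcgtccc
Per1 promoter, chr11:69098699-69098998, plus strand, E-box and then AGGTCA on the other strand in capitals: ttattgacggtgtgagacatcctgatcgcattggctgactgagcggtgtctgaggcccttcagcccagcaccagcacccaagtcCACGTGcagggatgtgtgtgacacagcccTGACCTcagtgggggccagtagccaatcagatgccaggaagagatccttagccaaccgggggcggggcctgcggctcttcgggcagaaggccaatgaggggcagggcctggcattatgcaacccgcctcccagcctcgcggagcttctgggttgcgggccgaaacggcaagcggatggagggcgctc
Per3 promoter, chr4:151044616-151044915, minus strand, both D-boxes in capitals: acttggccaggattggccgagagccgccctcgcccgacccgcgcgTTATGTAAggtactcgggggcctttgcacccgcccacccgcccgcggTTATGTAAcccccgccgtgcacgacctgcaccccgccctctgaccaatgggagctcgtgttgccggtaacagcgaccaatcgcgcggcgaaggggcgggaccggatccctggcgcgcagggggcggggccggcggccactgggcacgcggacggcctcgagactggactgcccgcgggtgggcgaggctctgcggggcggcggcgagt
Tef promoter, chr15:81802423-81802722, plus strand, E-box in capitals: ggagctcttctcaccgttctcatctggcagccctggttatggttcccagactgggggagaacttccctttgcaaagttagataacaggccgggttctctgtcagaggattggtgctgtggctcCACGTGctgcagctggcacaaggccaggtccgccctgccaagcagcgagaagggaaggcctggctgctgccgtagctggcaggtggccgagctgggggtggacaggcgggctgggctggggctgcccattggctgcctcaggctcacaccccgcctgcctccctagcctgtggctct

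An E-box was present in a window of 3 members, Cry1, Per1 and Tef, against 8.09% of the 27025 genes with a window of this length. Tef had 1 in each of its 2 windows. AGGTCA was present for Arntl, Clock and Per1, against 18.1% of genes, and D-boxes for Per3 alone, against 1.23%. The windows of Npas2, Nr1d1 and Dbp held none of these letters, which says nothing of elements outside them. The matches are descriptions of sequence, not measured binding.

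Library sizes and tissue content bear on every value that follows. Counts on genes ran from 12009432 to 20108831 per liver. Member levels are CPM, the usual share of all reads on genes, with each library corrected by its TMM factor, which aligns the bulk of genes between libraries. Defining hepatocyte markers were high in all 24 libraries, at summed levels from 123278 to 217459 CPM without that correction, as for all marker sums. Exocrine pancreas transcripts exceeded 100 CPM in 6 libraries: WT KD livers 1, 2 and 4 (1057, 16412 and 5021 CPM), WT MCT liver 3 (18323) and 3xTg MCT livers 3 and 4 (3073 and 9492). The sum of 6 neutrophil markers was 82.8 and 93.7 CPM in 3xTg KD livers 2 and 3, and 10.1 and 4.49 CPM in livers 1 and 4 of that group. Other marker sums set all 4 livers of that group apart from the 3xTg control livers: hepatocyte markers at 123278 to 155482 against 156548 to 217459 CPM, Kupffer cell markers at 657 to 974 against 392.1 to 636, endothelial markers at 395 to 470 against 310 to 376, and stellate cell markers at 504 to 576 against 358 to 450. With the TMM correction the hepatocyte sums still did not overlap (101264 to 130209 against 142381 to 223928 CPM) and the other 3 did. In bulk tissue, fewer cells of a type and less RNA per cell cannot be told apart.

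Of the 10 members, 9 were expressed well enough to be tested. Per kilobase of exon, the median level over 24 livers was highest for Tef at 14.0 RPKM (CPM per kilobase), followed by Cry1 at 8.58, Dbp at 5.005, Per2 at 4.09, Clock at 2.97, Nr1d1 at 2.79, Per1 at 2.01, Per3 at 1.44 and Arntl at 0.775. Npas2 lay at 0.0280 and was left out by the expression filter. It had from 0 to 15 reads, none in 6 livers, and more than 3 in another 6.

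Arntl, the core activator, ranged from 0.387 to 23.7 CPM, a 61.3-fold span. The low end was 3xTg MCT liver 2, with 6 reads, and the high end WT KD liver 1, a library with pancreas transcripts, so the 2 differ in genotype and diet. In WT it was at 3.90, 20.4, 1.93 and 14.7 CPM in the 4 control livers, at 4.15, 9.11, 9.60 and 20.3 in the MCT livers, and at 23.7, 1.86, 6.28 and 1.51 in the KD livers. In 3xTg it was at 4.18, 1.29, 3.75 and 10.6 CPM in control livers, at 2.34, 0.387, 22.4 and 12.1 in MCT livers, and at 5.38, 15.3, 18.0 and 1.51 in KD livers. Livers above 10 CPM and livers below 5 CPM occurred in each of the 6 groups, and the groups overlapped throughout. Arntl (ENSMUSG00000055116.8) lies on chromosome 7 from 113207465 to 113314126 on the plus strand of GRCm38.

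Clock, the partner of Arntl, ranged less widely, by 4.17-fold. It stood at 31.3, 59.0, 38.7 and 50.5 CPM in WT control livers, at 46.8, 41.2, 40.3 and 71.1 in WT MCT livers, and at 85.7, 39.1, 38.7 and 20.5 in WT KD livers. The 3xTg livers had 31.4, 24.9, 37.1 and 46.1 CPM on control diet, 35.5, 31.4, 57.4 and 46.5 on MCT, and 51.3, 73.3, 83.3 and 34.4 on KD. In all 6 groups the liver with the most Clock was the liver with the most Arntl. Npas2, which can take the place of Clock, stood from 0.456 to 0.822 CPM in 5 livers and lower in the rest. The 5 were WT control liver 2, WT MCT liver 4, WT KD liver 1, 3xTg MCT liver 3 and 3xTg KD liver 3, which had the most Arntl in each of those groups. Clock (ENSMUSG00000029238.11) lies on chromosome 5 from 76209868 to 76304792 on the minus strand of GRCm38. Npas2 (ENSMUSG00000026077.15) is on chromosome 1 from 39193731 to 39363236 on the plus strand of GRCm38.

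Dbp, an output of the loop, was the mirror image of Arntl and spanned 54.1-fold. WT livers had 33.5, 2.11, 35.3 and 8.35 CPM on control diet, 27.1, 16.1, 8.27 and 5.21 on MCT, and 2.10, 23.5, 13.4 and 86.2 on KD. In 3xTg the values were 35.99, 75.8, 35.3 and 9.85 CPM on control diet, 40.5, 113, 10.5 and 6.60 on MCT, and 13.9, 4.37, 4.84 and 57.5 on KD. The liver with the least Arntl of all 24, 3xTg MCT liver 2, had the most Dbp, and the liver with the most Arntl, WT KD liver 1, had the least. The number of Dbp reads per Arntl read ran from 0.0885 in WT KD liver 1 to 293 in 3xTg MCT liver 2. Dbp (ENSMUSG00000059824.12) lies on chromosome 7 from 45705088 to 45710203 on the plus strand of GRCm38.

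Nr1d1, the repressor of Arntl, spanned 40.7-fold and went with Dbp. It was at 17.5, 1.01, 15.6 and 3.99 CPM in WT control livers, at 16.1, 6.89, 4.48 and 1.85 in WT MCT livers, and at 1.55, 9.60, 7.57 and 24.5 in WT KD livers. The 3xTg values were 16.4, 28.7, 11.9 and 4.79 CPM on control diet, 17.8, 41.2, 18.6 and 5.02 on MCT, and 3.63, 3.41, 1.65 and 16.6 on KD. One liver stood off this pattern: 3xTg MCT liver 3, which held pancreas transcripts. It combined high Arntl (22.4 CPM) with Nr1d1 at 18.6 CPM, above the median of 8.59 over 24 livers. Its Dbp (10.5 CPM) lay below the median of 15.0. Nr1d1 (ENSMUSG00000020889.11) lies on chromosome 11 from 98767932 to 98775333 on the minus strand of GRCm38. It overlaps Thra by 1075 bp and Dbp overlaps Sphk2 by 737 bp, each on the opposite strand, and the strand direction used in counting is not stated in the sources used here.

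**Figure D1:**
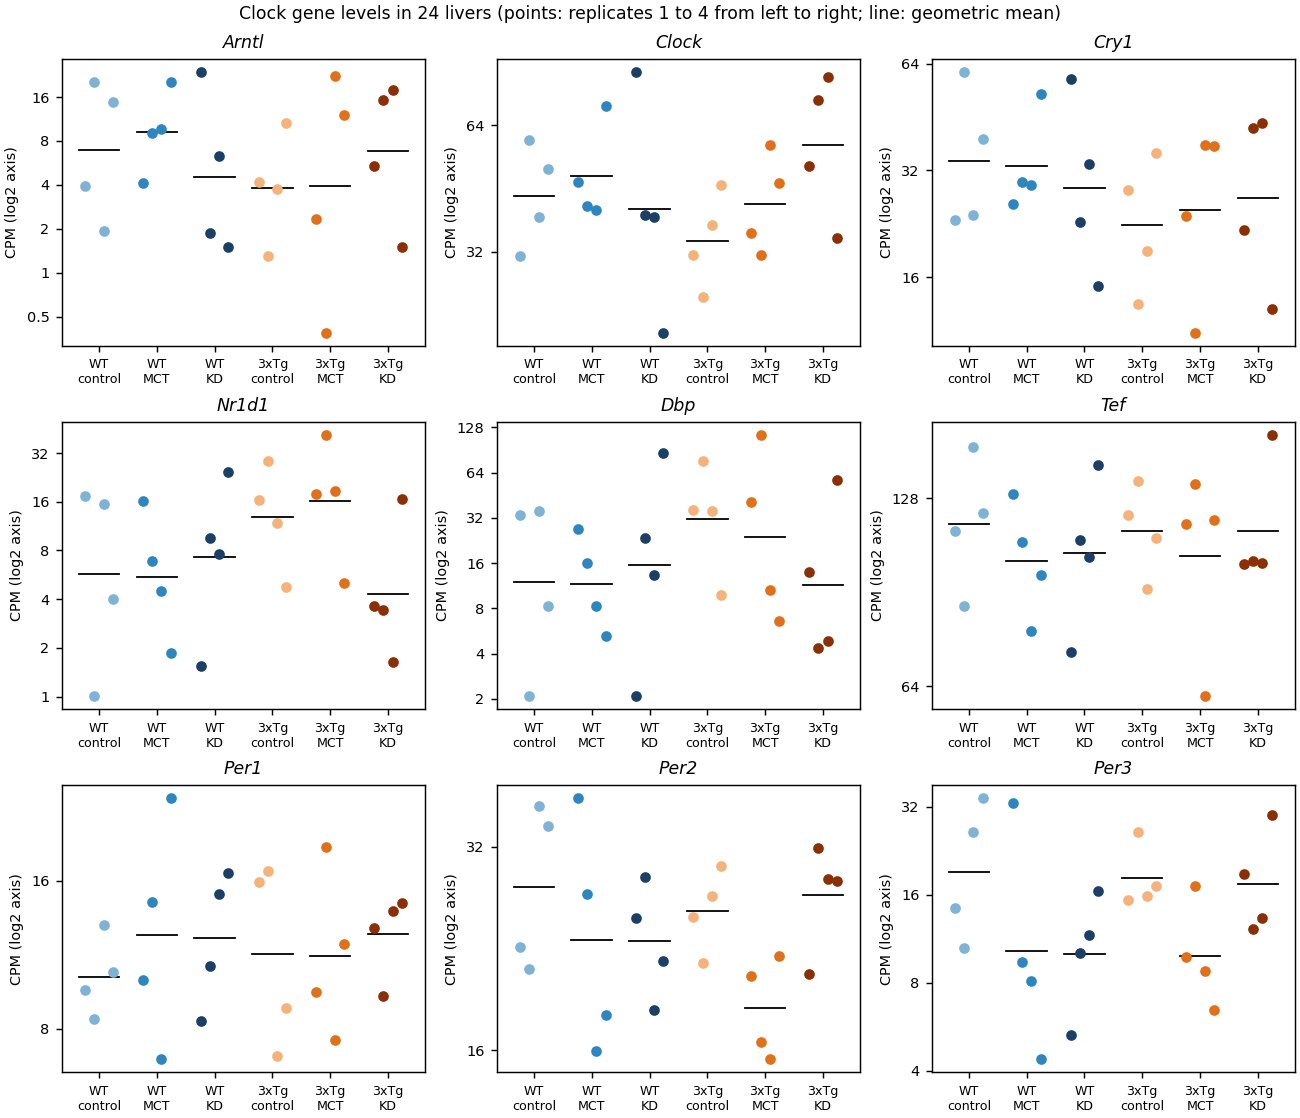
Level of each of the 9 tested members in each of 24 livers (CPM, log axis), arranged by genotype and diet, with a line at the geometric mean of each group. Arntl, Nr1d1 and Dbp spread over 61.3-, 40.7- and 54.1-fold, against 2.43-fold for Per2 and 2.61-fold for Tef, and points of all groups overlap in every panel.

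Cry1, a repressor of the ARNTL and CLOCK pair, went with Arntl rather than with Dbp. It stood at 23.3, 60.6, 24.0 and 39.2 CPM in WT control livers, at 25.7, 29.8, 29.2 and 52.6 in WT MCT livers, and at 57.8, 22.9, 33.3 and 15.1 in WT KD livers. The 3xTg livers had 28.1, 13.5, 19.0 and 35.7 CPM on control diet, 23.8, 11.2, 37.8 and 37.4 on MCT, and 21.7, 42.1, 43.5 and 13.0 on KD. Its 5.42-fold range was narrower than that of Arntl, but the liver with the least of each was the same, 3xTg MCT liver 2. Cry1 (ENSMUSG00000020038.10) lies on chromosome 10 from 85131700 to 85185064 on the minus strand of GRCm38.

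The 3 Per genes, the other repressors, did not share one pattern. Per3 spanned 7.80-fold, from 4.39 CPM in WT MCT liver 4 to 34.2 in WT control liver 4, with a median of 13.9. WT MCT liver 1 held 32.9 CPM while the other livers of that group held 9.40, 8.13 and 4.39. Per3 lies within Camta1 on the same strand over 41014 bp, so reads in this stretch cannot be told apart from Camta1 by strand. Per1 ranged from 6.94 to 23.6 CPM (median 11.3), highest in WT MCT liver 4, a liver with 20.3 CPM of Arntl. Per2 had the narrowest range, from 15.5 to 37.8 CPM (median 23.9), and Tef, a D-box activator like DBP, ranged from 61.8 to 161 CPM (median 110.1). Per1 (ENSMUSG00000020893.17) lies on chromosome 11 from 69095217 to 69109960 on the plus strand of GRCm38. Per2 (ENSMUSG00000055866.9) lies on chromosome 1 from 91415982 to 91459324 on the minus strand of GRCm38. Per3 (ENSMUSG00000028957.12) lies on chromosome 4 from 151003652 to 151044665 on the minus strand of GRCm38. Tef (ENSMUSG00000022389.15) lies on chromosome 15 from 81802421 to 81826863 on the plus strand of GRCm38.

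Set against other genes of like abundance, the members with the widest spread stood near the top. After removal of group means, the SD of log2 CPM between livers was 1.71 for Dbp, 1.69 for Arntl and 1.44 for Nr1d1, ranks 140, 147 and 201 among 13281 tested genes. Among genes with an average CPM within a factor of 2, Dbp lay at the 99.6th percentile, Arntl at the 99.3rd and Nr1d1 at the 99.3rd, where the median SD was 0.25, 0.30 and 0.29. Cry1 (0.71), Per3 (0.75) and Clock (0.52) stood at the 98.2nd, 97.9th and 95.1st percentiles of their own comparison genes, and Per2 (0.35) at the 79.6th. The 6 group means took up 8.98% of the variance of Arntl and 12.3% of that of Dbp, with 4.87% for Per1 as the lowest and 30.6% for Per3 as the highest. With 6 groups of 4 livers, group means take up some variance in any gene, also where no group differs. These shares are descriptions and do not measure an effect of genotype or diet.

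The groups were then compared, which addresses whether diet or genotype moved the clock genes. No member passed the test in any of the 11 contrasts. Across 99 member tests, edgeR's quasi-likelihood test with Benjamini-Hochberg adjustment over all 13281 genes called 0 members, 2 had an unadjusted p under 0.05, and the smallest adjusted p was 0.146. In the 9 contrasts between 2 groups, the livers of the groups overlapped for every tested member. The share of all genes without overlap was not computed, so this is no result about the members. DESeq2 also called 0 members in each of the 11 contrasts.

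These counts stand against the following background of all tested genes. For KD against control diet, 0.648% of genes were called in WT and 5.39% in 3xTg. For MCT against control diet the share was 0% in both genotypes, with 803 genes in WT and 855 in 3xTg at an unadjusted p under 0.05 in edgeR and 16 and 17 genes called by DESeq2. KD against MCT called 0.181% in WT and 8.02% in 3xTg. Against WT, 3xTg livers differed in 1.86% of genes on control diet, 1.74% on MCT and 8.49% on KD. The difference between genotypes was called for 0.00753% of genes in the KD response and for 0% in the MCT response, where 287 genes had an unadjusted p under 0.05 and DESeq2 called 0. With 9 members tested, shares of this size leave less than 1 member to be called in each contrast, so a count of 0 is near the background and is no result about the members.

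The order of the group means was accordingly loose. Arntl averaged 10.8 ± 6.80 CPM (SD, n = 4) in WT MCT, 10.2 ± 8.81 in WT control, 10.0 ± 7.84 in 3xTg KD, 9.32 ± 10.1 in 3xTg MCT, 8.34 ± 10.5 in WT KD and 4.96 ± 3.98 in 3xTg control livers. Dbp averaged 42.8 ± 49.5 CPM in 3xTg MCT, 39.2 ± 27.3 in 3xTg control, 31.3 ± 37.6 in WT KD, 20.1 ± 25.3 in 3xTg KD, 19.8 ± 17.0 in WT control and 14.2 ± 9.75 in WT MCT livers. Of 50 pairs of neighbouring means over the 10 members, 1 was farther apart than the larger SD of the pair. That pair was Per2 in WT KD (23.5 ± 4.52 CPM) and 3xTg MCT livers (18.7 ± 3.17). A test of any difference among the 6 groups called 0 of 9 members in edgeR, 0 with an unadjusted p under 0.05, and 0 in DESeq2, with 13.3% of all genes called, and its smallest member p was 0.170 for Per2 (adjusted p = 0.373).

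The intervals say how large a group difference could have gone unseen. For KD against control diet in WT, the log2 change of Arntl was -0.30 with a 95% interval from -2.27 to 1.67, and that of Dbp 0.66 (-1.40 to 2.72). In 3xTg the KD changes were 1.01 (-0.98 to 3.01) for Arntl, -0.96 (-3.03 to 1.10) for Dbp and -1.29 (-3.05 to 0.46) for Nr1d1. Differences of several fold in these 3 genes lay inside the intervals. Tef and Per2 were bounded more closely. The log2 change of Tef was -0.14 (-0.63 to 0.35) in WT and 0.02 (-0.47 to 0.51) in 3xTg, and that of Per2 was -0.29 (-0.77 to 0.19) and 0.08 (-0.40 to 0.56).

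MCT against control diet gave intervals of the same width. The log2 change of Arntl was 0.08 (-1.87 to 2.03) in WT and 0.90 (-1.10 to 2.90) in 3xTg. For Dbp it was -0.49 (-2.56 to 1.58) in WT and 0.13 (-1.92 to 2.17) in 3xTg. Between genotypes on control diet, Arntl differed by -1.04 (-3.04 to 0.96), Cry1 by -0.61 (-1.53 to 0.31) and Dbp by 0.98 (-1.09 to 3.06), 3xTg minus WT. On MCT the 3xTg minus WT difference was 1.49 (-0.27 to 3.25) for Nr1d1 and 1.60 (-0.51 to 3.70) for Dbp.

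The 2 members with an unadjusted p under 0.05 were Clock and Per2, and neither passed the adjustment. Clock in 3xTg averaged 60.6 ± 22.0 CPM on KD and 34.9 ± 8.97 on control diet (SD, n = 4), a log2 change of 0.80 ± 0.34 (SE), edgeR adjusted p = 0.189. The neutrophil transcripts were high in the same 2 livers that had the most Clock, 3xTg KD livers 2 and 3, and without those livers the Clock change was 0.30 (adjusted p = 0.899). Since these livers held the most Clock, the change had to fall without them, whatever their neutrophil content. The part of neutrophils in the difference was not tested. Scaling by library size alone put the Clock change at 1.08 with an adjusted p of 0.0331, and it moved the median of all genes to 0.31 in that contrast. Per2 in 3xTg averaged 27.5 ± 4.73 CPM on KD and 18.7 ± 3.17 on MCT, a log2 change of 0.56 ± 0.23 (SE), edgeR adjusted p = 0.146. Livers 3 and 4 of the MCT group, with pancreas transcripts, held 15.5 and 22.1 CPM of Per2, and livers 1 and 2 held 20.6 and 16.5. Over all groups, median Per2 was 21.9 CPM in the 6 pancreas libraries and 26.1 CPM in the other 18. The part of the pancreas transcripts in the difference was not tested. Library size alone gave Per2 a change of 0.99 (adjusted p = 0.0118), with the median of all genes at 0.43.

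Members varied together inside the groups. Over the 24 livers, with group means removed, 29 of the 45 pairs among the 10 members were correlated at an adjusted p under 0.05, 13 positively and 16 negatively (permutation within groups, 100000 resamples, two-sided, Benjamini-Hochberg over 45 pairs). Spearman's rho called 29 as well, with Per1 and Dbp (permutation adjusted p = 0.0362) in place of Npas2 and Per3 (adjusted p = 0.0574). Among the 9 tested members, 22 of 36 pairs passed by r. No share was computed for pairs among all genes, so these counts and those below have no background beside them. Arntl and Cry1 rose and fell together (r = 0.948, rho = 0.937), as did Nr1d1 and Dbp (r = 0.944, rho = 0.934) and Arntl and Clock (r = 0.837, rho = 0.830). Dbp ran against Arntl (r = -0.937, rho = -0.957) and against Cry1 (r = -0.956, rho = -0.936). Each of these 5 had a permutation p of 1e-05 for r, the smallest that 100000 resamples can give, and an adjusted p of 5e-05. Without the 2 livers farthest from the median of the first gene, r was 0.951 for Arntl and Cry1, 0.922 for Nr1d1 and Dbp, 0.861 for Arntl and Clock, -0.959 for Arntl and Dbp, and -0.947 for Cry1 and Dbp.

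**Figure D2:**
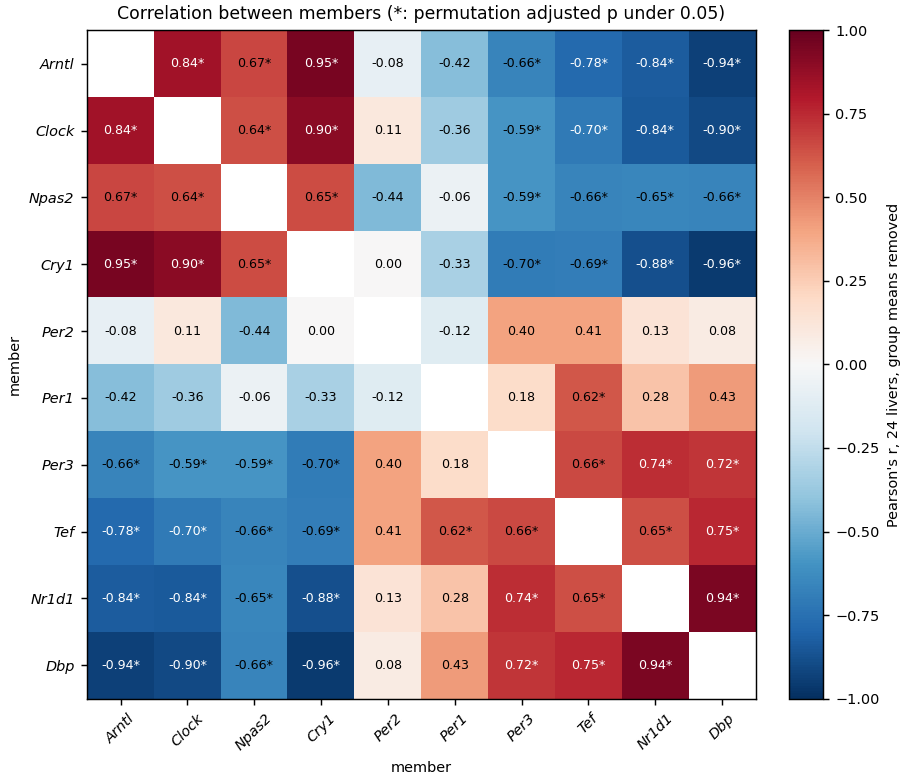
Pearson correlation of each pair of the 10 members over 24 livers, on log2 CPM with group means removed. Arntl, Clock, Npas2 and Cry1 form a positive block, Nr1d1, Dbp, Tef and Per3 form another, the pairs across the blocks are negative down to -0.956, and no pair with Per2 passed the test.

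The leading correlations had the same sign in both genotypes taken separately. Over 12 livers each, r between Arntl and Dbp was -0.942 in WT and -0.957 in 3xTg, and between Arntl and Cry1 0.944 and 0.953. Arntl and Nr1d1 gave -0.926 in WT and -0.793 in 3xTg, with -0.835 over all 24 (permutation adjusted p = 5e-05). Without 3xTg MCT liver 3, the liver of high Arntl with Nr1d1 above its median, the value over all livers was -0.924. In the 18 livers without pancreas transcripts, r was -0.954 for Arntl and Dbp, 0.958 for Arntl and Cry1, and -0.915 for Arntl and Nr1d1. All values of a liver share 1 library and its scaling.

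**Figure D3:**
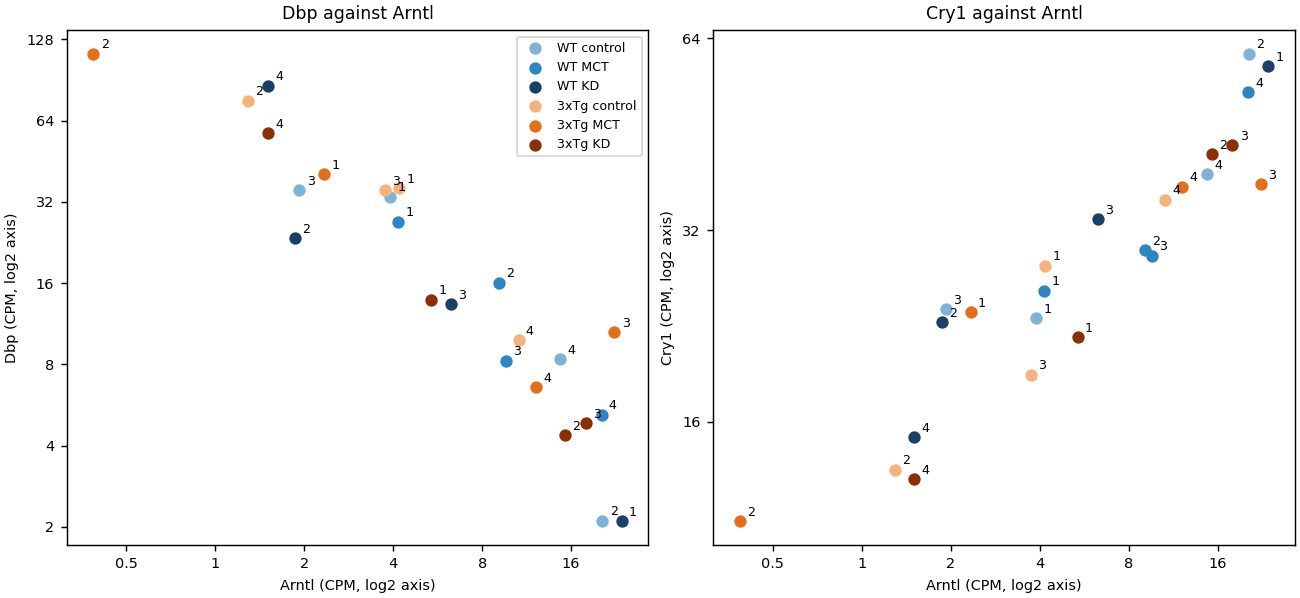
Dbp (left) and Cry1 (right) against Arntl in each of 24 livers (CPM, log2 axes), coloured by group and numbered by replicate. Dbp falls and Cry1 rises along Arntl across every group, from 3xTg MCT liver 2 (Arntl 0.387, Dbp 113) to WT KD liver 1 (Arntl 23.7, Dbp 2.10).

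Per1 and Per2 stood apart from the blocks. Per2 passed with no other member: r was -0.0849 with Arntl, 0.0820 with Dbp and 0.00495 with Cry1, none past the threshold (permutation adjusted p = 0.734, 0.747 and 0.981). By Pearson's r, Per1 passed only with Tef (r = 0.621, rho = 0.631, permutation adjusted p = 0.006), and with Arntl it gave r = -0.422 (adjusted p = 0.0768). By rho, Per1 also passed with Dbp (rho = 0.473, permutation adjusted p = 0.0362). The Per1 values leaned on WT MCT liver 4, and without that liver 35 of the 45 pairs passed, r of Per1 with Arntl was -0.592, and r of Per1 with Dbp was 0.600 in place of 0.427. Per3 went with the Dbp block, with r of 0.716 with Dbp (adjusted p = 0.000825), 0.735 with Nr1d1 and -0.661 with Arntl (adjusted p = 0.00135). Per2 and Per3 gave r = 0.674 in WT and -0.482 in 3xTg, a difference that was not tested.

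A single number per liver sums this up as a description. The clock contrast is the mean log2 CPM of Arntl, Clock and Npas2 minus that of Nr1d1, Dbp, Tef and Per3. Npas2 enters it although the expression filter left it out, at 0 to 15 reads per liver. Without Npas2 the contrast ran from -3.92 in 3xTg MCT liver 2 to 2.89 in WT KD liver 1. With Npas2 it ran from -5.33 to 0.75 in the same 2 livers, a range of 6.08 log2 units, while the 6 group means ranged over 1.75. Each group covered much of this range. The distance from the lowest to the highest liver of a group was 3.00 in 3xTg control, the narrowest, then 4.36 in WT MCT, 4.53 in 3xTg MCT, 4.83 in WT control, 4.91 in 3xTg KD and 5.58 in WT KD. The group means took up 10.0% of its variance, a share that does not measure an effect of genotype or diet. The first principal component of the 10 members, on scaled log2 CPM, carried 60.7% of their variance with Arntl, Cry1, Clock and Npas2 on one side and Dbp, Nr1d1, Tef and Per3 on the other. The second carried 17.0%, led by Per2 (0.73) and Per3 (0.41).

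**Figure D4:**
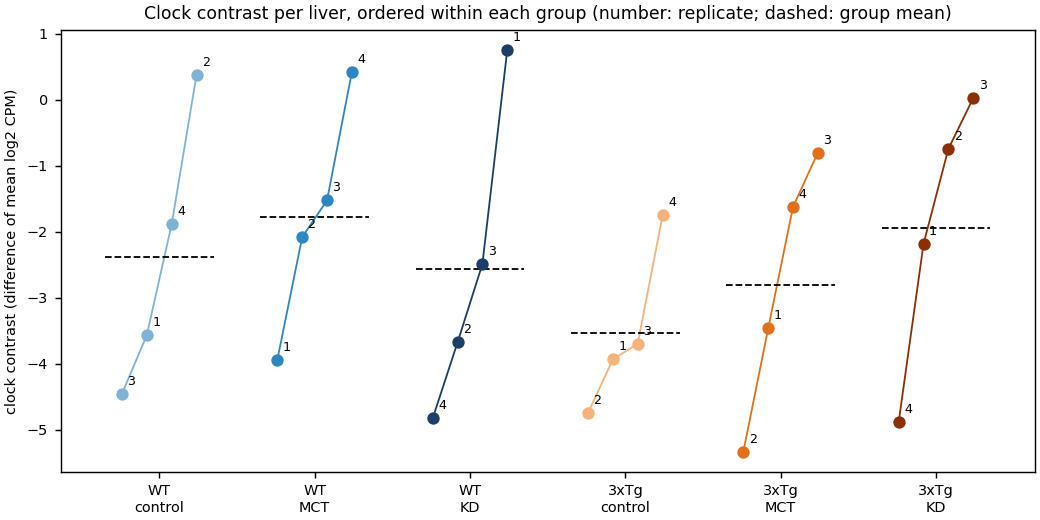
Clock contrast of each liver (mean log2 CPM of Arntl, Clock and Npas2 minus mean log2 CPM of Nr1d1, Dbp, Tef and Per3), by group and ordered by value within it, numbered by replicate, with a dashed line at each group mean. Livers run from -5.33 to 0.75 while group means range over 1.75, and the narrowest group covers 3.00 log2 units.

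The 2 ends of the range were found on different diets and in both genotypes. The 4 highest contrasts were in WT KD liver 1 (0.75), WT MCT liver 4 (0.42), WT control liver 2 (0.38) and 3xTg KD liver 3 (0.03). The 4 lowest were in 3xTg MCT liver 2 (-5.33), 3xTg KD liver 4 (-4.89), WT KD liver 4 (-4.83) and 3xTg control liver 2 (-4.75). Libraries with pancreas transcripts lay at both ends: their Arntl ran from 1.51 to 23.7 CPM (median 10.9) and that of the other 18 from 0.387 to 20.4 CPM (median 4.78). In the 3xTg KD group, the neutrophil-high livers 2 and 3 had contrasts of -0.74 and 0.03 and livers 1 and 4 had -2.18 and -4.89. Their part in this was not tested. No hour of collection can be set beside these values, so no liver was assigned a phase.

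The genes that follow Arntl from liver to liver were then read from a fit of all genes. Arntl's log2 CPM, with group means removed, entered the edgeR fit as a covariate beside the groups, a test added after the data were seen. Of 13280 other genes, 178 followed it at an adjusted p under 0.05, 1.34% of those tested, 98 upward and 80 downward. Of the 8 other members tested, 5 were among them. Cry1 had the smallest p of all genes, with a slope of 0.40 ± 0.03 log2 units per log2 unit of Arntl (SE, edgeR adjusted p = 4.54e-07). Dbp had the next, at -0.94 ± 0.08 (adjusted p = 5.52e-07). Clock rose by 0.26 ± 0.04 (adjusted p = 0.000592), Nr1d1 fell with -0.66 ± 0.11 (adjusted p = 0.00124), and Tef with -0.17 ± 0.03 (adjusted p = 0.0100). Per3 at -0.29 ± 0.08 (adjusted p = 0.0663), Per1 at -0.12 ± 0.06 and Per2 at -0.02 ± 0.05 did not pass. The 5 members passed in all 24 fits that left out 1 liver, and Per3 joined them without WT control liver 4 (adjusted p = 0.0110) or WT MCT liver 1 (adjusted p = 0.0479). Without the 6 libraries with pancreas transcripts Tef no longer passed (slope -0.15, adjusted p = 0.113), and 40 genes in all did.

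Partners of the loop, a list of 15 further clock genes, were read in the same way. In the 11 contrasts 0 of 165 tests were called by edgeR, 10 had an unadjusted p under 0.05, the smallest adjusted p was 0.0792, and DESeq2 called 0. Library size alone called 5 of 15 for KD against MCT in 3xTg, 3 for 3xTg against WT on KD and 1 for the genotype difference in KD response, all higher. With that scaling 4386, 4647 and 985 of all 13281 genes were called, and the medians of all genes were 0.43, 0.43 and 0.45. The partner counts were thus near or below the shares of all genes. The fit with Arntl as a covariate called 1 partner, lower, for 3xTg against WT on KD, where it called 1163 of 13280 genes. Within groups 6 of 15 followed Arntl, 2 upward and 4 downward, with a median slope of -0.07 over the list against 0.00 over all genes. Nfil3, a repressor at D-boxes, rose with Arntl at 0.33 ± 0.04 (edgeR adjusted p = 0.00013). Ciart, a repressor of the ARNTL and CLOCK pair, fell at -0.57 ± 0.09 (adjusted p = 0.000819), as did Nr1d2, the paralog of Nr1d1, at -0.32 ± 0.06, Bhlhe41, an E-box repressor, at -0.42 ± 0.09, and Usp2 at -0.23 ± 0.04, a deubiquitinase. Cry2, the paralog of Cry1, had a slope of -0.0044 ± 0.04 and Rora one of 0.03 ± 0.05, and neither passed. The kinases Csnk1d and Csnk1e, the ubiquitin ligase subunit Fbxl21, Bhlhe40, Timeless and Hlf, another D-box activator, did not pass either. Without the pancreas libraries 3 of 15 passed.

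**Figure D5:**
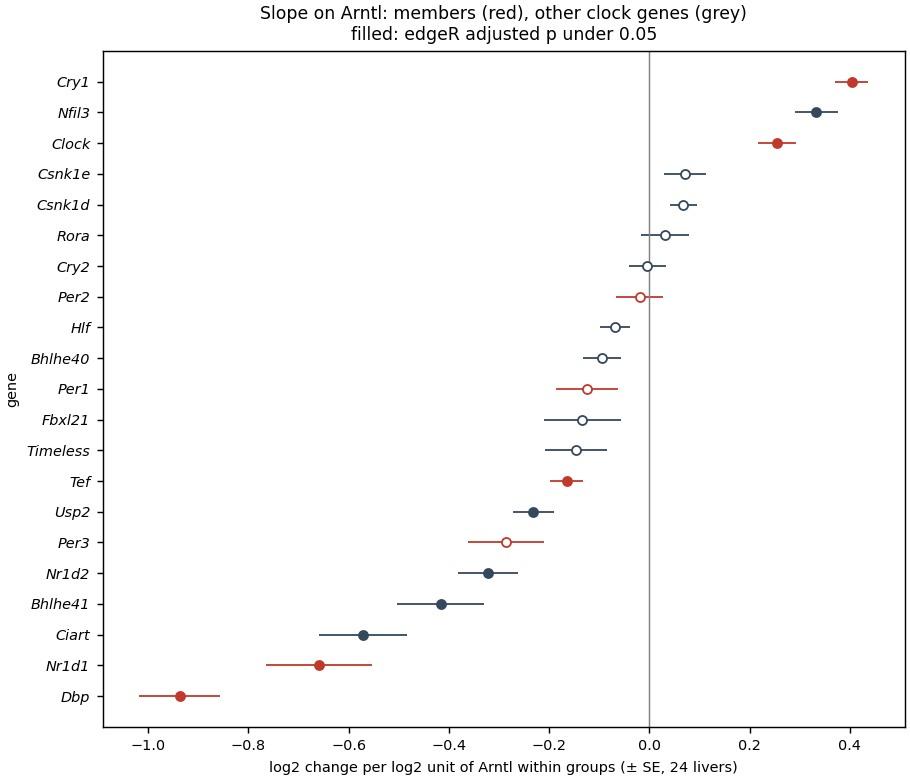
Slope of each tested member and of the clock partners named in the text on Arntl within groups (log2 units per log2 unit of Arntl, with SE), from 1 edgeR fit of 24 livers. Dbp at -0.94 and Nr1d1 at -0.66 are lowest, Cry1 at 0.40 is highest, and Per2 at -0.02 lies near 0; filled points passed the test.

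Some liver genes known as clock outputs followed Arntl. Of 23 listed, 8 passed in edgeR, with a median slope of -0.06 and 1.34% of all genes passing. With their slopes in parentheses, Avpr1a (0.35), Insig2 (0.32), an anchor of sterol sensing, Lonrf3 (0.30), Fmo5 (0.20) and Slc16a1 (0.15), a monocarboxylate carrier, rose with Arntl. Coq10b (-0.35), Upp2 (-0.28), a uridine phosphorylase, and Wee1 (-0.22), a kinase that restrains mitosis, fell. Cyp7a1, the rate-limiting enzyme of bile acid synthesis, had -0.30 ± 0.08 (edgeR adjusted p = 0.0512). Without the 6 pancreas libraries 1 of 23 passed. Some genes of this list were also called between groups. Insig2 (1.72 ± 0.46, edgeR adjusted p = 0.0306), Mfsd2a (1.16 ± 0.34) and Nr1i3 (0.72 ± 0.18) were higher in 3xTg livers on KD than on control diet. Cyp2a5 (-1.10 ± 0.25) and Cyp2a4 (-1.09 ± 0.22) were lower. These were 5 of 23, with 5.39% of all genes called. Without 3xTg KD livers 2 and 3, 0 of 23 were called in that contrast and 7 had an unadjusted p under 0.05, with 76 of all genes called in place of 716. Against MCT, 3xTg KD livers had higher Tsku (1.70 ± 0.44, edgeR adjusted p = 0.0206), Mfsd2a, Nr1i3 and Noct and lower Cyp2a4, again 5 of 23. Of all genes, 8.02% were called there. None of these 5 passed without the pancreas libraries, where 3 others did, and 0 of 23 passed without 3xTg KD livers 2 and 3 (5 had an unadjusted p under 0.05) or from these groups alone (9 had). Por, the electron donor of cytochromes P450, was lower in 3xTg than in WT livers on KD (-0.80 ± 0.23, edgeR adjusted p = 0.0301), as was Cyp2a4 (-0.77 ± 0.22, adjusted p = 0.0342). These 2 of 23 were near the 8.49% of all genes called in that contrast. Neither passed without the pancreas libraries, 3 of which are WT KD livers (edgeR adjusted p = 0.25 for Por), without 3xTg KD livers 2 and 3 (adjusted p = 0.299) or with library size alone (adjusted p = 0.186). In WT, Alas1, the rate-limiting enzyme of heme synthesis, was higher on KD than on control diet (1.72 ± 0.40, edgeR adjusted p = 0.0472), and did not pass without the pancreas libraries (adjusted p = 0.198) or with library size alone (adjusted p = 0.083). This was 1 of 23, with 0.648% of all genes called. When each liver was left out in turn, Cyp2a4 and Cyp2a5 passed in all 8 fits of KD against control diet in 3xTg. The other calls of this list passed in 1 to 7 of 8 fits, with the largest adjusted p without 3xTg KD liver 3 or, for Alas1, without WT control liver 4. The part of the neutrophil, pancreas and other cell type markers in these differences was not tested.

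Lists of glucocorticoid-responsive and of heat- and cold-responsive genes were read beside the clock, since both inputs can reset it. Of 12 glucocorticoid-responsive genes 1 followed Arntl, Cdkn1a, a cell cycle inhibitor, at 0.76 ± 0.13 (edgeR adjusted p = 0.00203), and of 10 heat- and cold-responsive genes 0 did, although 2 of them had an unadjusted p under 0.05 and DESeq2 called 1. In 3xTg, KD livers had higher Dusp1 (1.87 ± 0.53, adjusted p = 0.0421), Tsc22d3 (0.92 ± 0.22, adjusted p = 0.0178) and Sgk1 (0.71 ± 0.21, adjusted p = 0.0494) than control livers, 3 of 12, with 5.39% of all genes called. Sgk1 did not pass in edgeR with RLE factors (adjusted p = 0.0511), no filter (0.0665), a replicate block (0.0531) or the legacy fit (0.0522). Nor did it without the pancreas libraries (0.0531) or from these groups alone (0.0965). It passed with DESeq2 (adjusted p = 0.0248) and with library size alone (edgeR adjusted p = 0.00939). The same 3 genes were higher on KD than on MCT in 3xTg, with 8.02% of all genes called. Of the 3, Tsc22d3 (1.13 ± 0.22, edgeR adjusted p = 0.00419) was the only 1 to pass without the pancreas libraries (adjusted p = 0.0305). Tsc22d3 was also higher in 3xTg than in WT livers on KD (1.08 ± 0.22, edgeR adjusted p = 0.00492), but did not pass without the pancreas libraries (adjusted p = 0.337). It was 1 of 12, near the 8.49% of all genes called there. Without 3xTg KD livers 2 and 3, 0 of 12 were called by edgeR in each of these 3 contrasts, and 4, 4 and 2 had an unadjusted p under 0.05. Rbm3, the cold-inducible RNA-binding protein, was lower in 3xTg than in WT livers on control diet (-1.26 ± 0.26, adjusted p = 0.00853) and lower on KD than on control diet in WT (-1.15 ± 0.26, adjusted p = 0.0440). The WT diet difference did not pass without the pancreas libraries (-0.89, edgeR adjusted p = 0.781) or from these groups alone (adjusted p = 0.0641). In 3xTg Rbm3 was lower on KD than on MCT (-1.04 ± 0.26, edgeR adjusted p = 0.0170), but did not pass without the pancreas libraries (adjusted p = 0.0864), without 3xTg KD livers 2 and 3 (adjusted p = 0.157), from these groups alone (adjusted p = 0.0558) or with library size alone (adjusted p = 0.0744). It was 1 of 10 there, near the 8.02% of all genes called. When each liver was left out in turn, Tsc22d3 against MCT and against WT, and Rbm3 on control diet, passed in all 8 fits, and the other calls of these lists passed in 1 to 6 of 8.

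Members were also ranked among all genes. Of 12011 other genes averaging at least 1 CPM, Cry1 had the highest r with Arntl over the 24 livers and Dbp the lowest. Nr1d1 had the highest r with Dbp, Cry1 the lowest and Arntl the next lowest. Clock ranked 21st from the top with Arntl and Per3 63rd from the top with Dbp. Among the 11429 genes left after the members and unnamed gene models (symbols such as Gm or Rik with digits), the closest to Arntl were Desi2 (0.930), Chka (0.922), a choline kinase, Ppp1r3c (0.916), a glycogen-targeting phosphatase subunit, Clpx (0.914), a mitochondrial unfoldase, Acnat2 (0.895), Nedd4l (0.892), Leo1 (0.890) and Asap2 (0.890). Farthest were Prps2 (-0.883), Slc2a9 (-0.875), a urate carrier, Slc5a6 (-0.864) and Upp2 (-0.852). The closest to Dbp were Slc2a9 (0.892), Slc22a23 (0.862), Bdh1 (0.853), the dehydrogenase that forms the ketone body beta-hydroxybutyrate, Upp2 (0.848), Slc5a6 (0.841), Ttc39b (0.840), Ciart (0.836) and Thnsl2 (0.825). Ppp1r3c (-0.932), Acnat2 (-0.925), Lgalsl (-0.922) and Desi2 (-0.913) ran farthest against Dbp. These r values are descriptions over 24 livers that share library and scaling within a liver, and they carry no test.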

How the data were processed

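Liver polyA RNA of 24 mice was sequenced, 1 library per mouse. The authors deposited raw read counts per gene as whole numbers. Trimmomatic, STAR and GRCm38 appear in the submitters' processing notes. The strand direction of counting and any use of the molecular identifiers are not stated in the sources used here. Summary entries that name no gene, 4 per library, held 21.5% to 30.1% of the counts and were left out. Sample columns left unused numbered 0. Of the gene identifiers, 98.6% matched GENCODE M21 with the same version, which gave lengths and overlaps. Replicates differed beyond sampling noise, with a smallest chi-square per gene of 25.1.

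All genes were tested in R 4.3.3 by edgeR 4.0.16 after TMM scaling, with filterByExpr by group (13281 genes) and a quasi-likelihood fit of 24 livers on 6 group means, which leaves 18 residual degrees of freedom. Calls were made at a Benjamini-Hochberg adjusted p under 0.05 over all tested genes. Log2 CPM used a prior count of 1. Every p measures spread between mice. Members and gene lists were chosen with earlier results of these data known. All 10 members are named. Of each list the rule names genes called in a contrast, up to 6 by adjusted p, and the clock partners, some of which are not reported here; further called clock outputs, and every called list gene that follows Arntl and Cyp7a1, were named after their values were seen. The 8 genes most like Arntl and Dbp and the 4 least like them, at 1 CPM or more on average, are named too. Alternatives were RLE factors, library size alone, no filter, DESeq2 1.42.0, only the compared groups, a replicate block, and leaving out each liver. Chosen after seeing the data were the fit with Arntl as a covariate, a legacy fit, and fits without the 6 pancreas libraries or without 3xTg KD livers 2 and 3. The procedure was tested on simulated data. The labels name no litter, batch or day behind the replicate numbers. In the data, same-numbered livers deviated together in all 4 pairs only between genotypes on MCT (correlations 0.18 to 0.31).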

Additional observations from a re-analysis of the deposited data

Results flagged for a closer look

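Tef in 3xTg KD livers had 1 liver far from the others. Liver 4 held 161 CPM, while the other 3 lay from 100.4 to 102 CPM, a gap of 0.976 of the whole range, which is past Dixon's limit for 4 samples. This liver also had the lowest Arntl of its group, 1.51 CPM, and the highest Dbp, 57.5 CPM. Of 60 sets of 4 livers (10 members in 6 groups), 1 was past the limit, and chance passes about 1 in 20.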

How the results depend on the processing

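The count of 0 members called held in each of the 11 contrasts with RLE factors, DESeq2, no filter, the legacy fit, the compared groups alone, and without the pancreas libraries. Library size alone called 1 member for KD against control diet in 3xTg (Clock), 2 for KD against MCT in 3xTg (Clock at 0.96, adjusted p = 0.0291, and Per2) and 1 for 3xTg against WT on KD (Clock at 0.88, adjusted p = 0.0410), with medians of all genes at 0.31, 0.43 and 0.43. With Arntl as a covariate, 2 members were called for KD against control diet in 3xTg (Clock at 0.76, adjusted p = 0.0259, and Dbp at -1.45, adjusted p = 0.0306), 1 for KD against MCT in 3xTg (Nr1d1 at -2.23, adjusted p = 0.0170) and 2 among the 6 groups (Dbp, adjusted p = 0.0281, and Nr1d1, adjusted p = 0.0392). The cause was not tested. Leaving out each liver in turn gave 0 members in the contrasts and 0 to 1 among the 6 groups, Per3 without WT MCT liver 1 (adjusted p = 0.0496). Of 1852 member values under alternatives, 148 had the other sign, all for uncalled values.

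A replicate block, fitted on the numbers in the titles, called 0 members in each contrast and among the 6 groups, and 5 that follow Arntl, so it changed no member call. Over all genes it moved the difference between genotypes in the KD response from 1 to 9 genes and no other count by over 1.5 times. In no contrast did every liver correlate best with its own number (0 to 2 of 4).

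Members that follow Arntl numbered 6 of 8 with DESeq2, 7 of 9 with no filter, 4 with library size alone (Tef lost, adjusted p = 0.0746), 4 of 9 without the pancreas libraries, and 5 to 6 leaving out each liver. Genes that follow Arntl numbered 291 with DESeq2, 81 without 3xTg KD livers 2 and 3, and from 69 (without 3xTg MCT liver 2) to 197 (without 3xTg control liver 4). Correlated pairs numbered 27 without the pancreas libraries, 30 without centring on groups, and 28 to 35 leaving out each liver.

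Counts over all genes, the background above, moved more. KD against control diet in WT called 86 genes, 266 with DESeq2, 53 with the legacy fit, 4 without the pancreas libraries, and 13 (without control liver 4) to 52 leaving out each liver. The same contrast in 3xTg called 716, with 1762 by library size and 271 without KD liver 3. KD against MCT called 24 in WT (92 with DESeq2, 6 from these groups alone, 7 without the pancreas libraries, 9 to 57 leaving out each liver) and 1065 in 3xTg (4386 by library size, 407 from these groups alone, 290 without the pancreas libraries, 234 without KD livers 2 and 3, 499 without KD liver 3). 3xTg against WT called 247 on control diet (385 with DESeq2, 150 without WT liver 3), 1128 on KD (4647 by library size, 643 from these groups alone, 94 without the pancreas libraries, 142 without KD livers 2 and 3, 516 without 3xTg liver 3) and 231 on MCT (73 from these groups alone, 115 without the pancreas libraries). The difference in KD response was 251 with DESeq2, 985 by library size, 65 from the compared groups, 17 with Arntl as a covariate, 7 with no filter and 0 to 122 leaving out each liver. Any difference among the groups was called for 1768, with 4311 by library size, 1077 without the pancreas libraries and 969 without 3xTg KD livers 2 and 3. At 6 to 382 Arntl reads and 0 to 15 Npas2 reads per liver, counting error limits the low end of both.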
